A study of Mus musculus with 2 samples.

Results

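Small structural RNAs of the nucleus and cytoplasm were examined in mouse granulocyte-monocyte progenitors (GMP), the marrow precursors of neutrophils and monocytes. The RNAs were the genes that the GENCODE annotation types as snRNA, misc_RNA or ribozyme and that had an expected count of at least 10 in both libraries. An expected count is the estimated number of reads of a gene, with reads that match several genes split among them. This choice left 53 genes of the 1967 genes of these types and of 43346 annotated genes in all. They were 38 of 1383 snRNA genes, 13 of 562 misc_RNA genes and 2 of 22 ribozyme genes. Beside snRNA, 7SK, 7SL and the ribozyme RNAs, the set held 1 Y RNA, 1 vault RNA, the telomerase RNA and Gm27517, which matched no family. The genes were chosen by their expected counts in these libraries, so their levels are a description and nothing was tested.

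The study sequenced total RNA from primary GMP of male C57BL/6J mice, adult and 5 to 6 weeks old. Its single group has 2 biological replicates, with 100 ng of input RNA per library after removal of rRNA, and no treatment or genotype was compared. The labels tie both replicates to 1 donor record, so a mean ± SD (n = 2) describes the spread of these libraries, which may be partly technical. The labels record a size range, without a unit, of 200 to 712 in the first library and of 200 to 1000 in the second. The size range therefore cannot be told apart from the replicate in any difference between the libraries.

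These RNAs work as cores of protein complexes. U1, U2, U4, U5 and U6 form the major spliceosome, which removes most introns, and U11, U12, U4atac and U6atac with U5 form the minor spliceosome for a rare intron class. 7SK holds the elongation kinase P-TEFb inactive, 7SL is the scaffold of the signal recognition particle that brings secretory proteins to the endoplasmic reticulum, and the RNase P and RNase MRP RNAs are the catalytic cores of tRNA and rRNA processing enzymes. Many of these genes are present in several near-identical copies, with many more diverged pseudogene copies in the genome.

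The libraries held 49473841 and 44260902 expected counts. All 8 marker genes listed for GMP were above 1 TPM (the deposited level per length) in both libraries, with means from 18.7 to 2420 TPM. Of 16 markers of other marrow cells or of cells that textbook gates exclude, 1 (Itga2b, at 2.91 and 3.38 TPM) reached 1 TPM in both libraries, while 7 were at 0 counts throughout. The stroma marker Pdgfrb was below this cut at 0.72 and 0.89 TPM, but had 542 and 514 counts. TPM is a share of a fixed total, of which the RNAs described below held the larger part. A cut of 1 TPM is therefore strict for an mRNA here. In bulk RNA, fewer cells of a type and less RNA per cell cannot be told apart.

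The 53 genes held 9.77% of all expected counts in replicate 1 and 6.30% in replicate 2, or 8.04% ± 2.46 (SD, n = 2). They held a far larger share of TPM, 70.8% and 59.5%, or 65.2% ± 7.95 (SD, n = 2). The gap between these shares goes with length. TPM divides a count by the effective length, the number of start positions a fragment can have, and the files imply mean fragments of 178 nt (replicate 1) and 214 nt (replicate 2). In replicate 1, 28 of the 53 genes were shorter than the mean fragment and had an effective length under 20 nt, and in replicate 2 there were 40. With annotated in place of effective length, an alternative chosen after seeing the data, the share was 43.0% in replicate 1 and 30.3% in replicate 2. Levels are therefore given as counts scaled to the library total (CPM) when the same RNA is compared between libraries, and as TPM, with this limit, when RNAs are compared with each other. The log2 CPM ratios use library sizes scaled over 12885 genes and a prior count of 2. They therefore differ slightly from the ratio of the printed CPM values.

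Reads were concentrated in a few families. Copies were summed by family, since reads were split among them. 7SL, 7SK, U2 and the RNase P RNA together held 85.6% of the counts of the 53 genes in replicate 1 and 91.3% in replicate 2. The 38 spliceosomal genes held 38.1% and 21.9% of those counts, but 77.5% and 69.1% of their TPM. Across families the level spanned from 39733 CPM for 7SL to 4.14 CPM for U4atac in replicate 1. The 95% Wilson interval of a family's share of the 53-gene count reached at most 0.0556 percentage points to either side, and such intervals cover counting error only. From 7SL down to RNase MRP RNA, each family's share differed between the libraries by more than that.

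**Figure D1:**
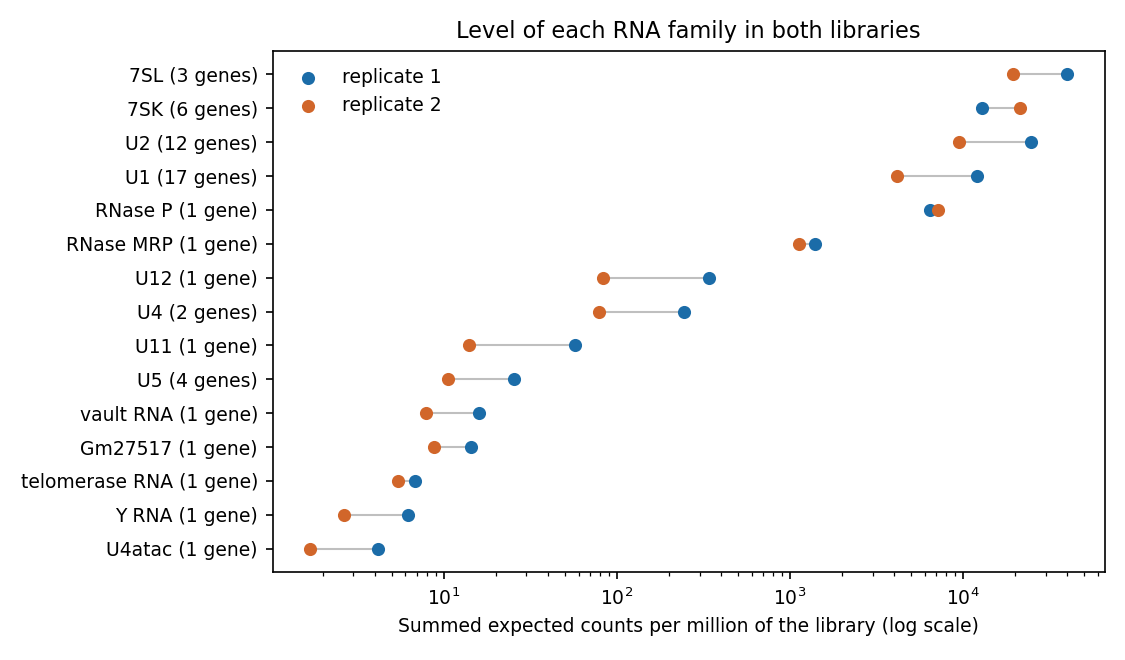
Summed expected counts in CPM (log scale) for each of the 15 families, 1 point per library, with the number of genes at or above the minimum in brackets. 7SK is below 7SL and U2 in replicate 1 and above both in replicate 2, and 7SK and RNase P are the families whose replicate 2 point lies to the right.

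**Figure D2:**
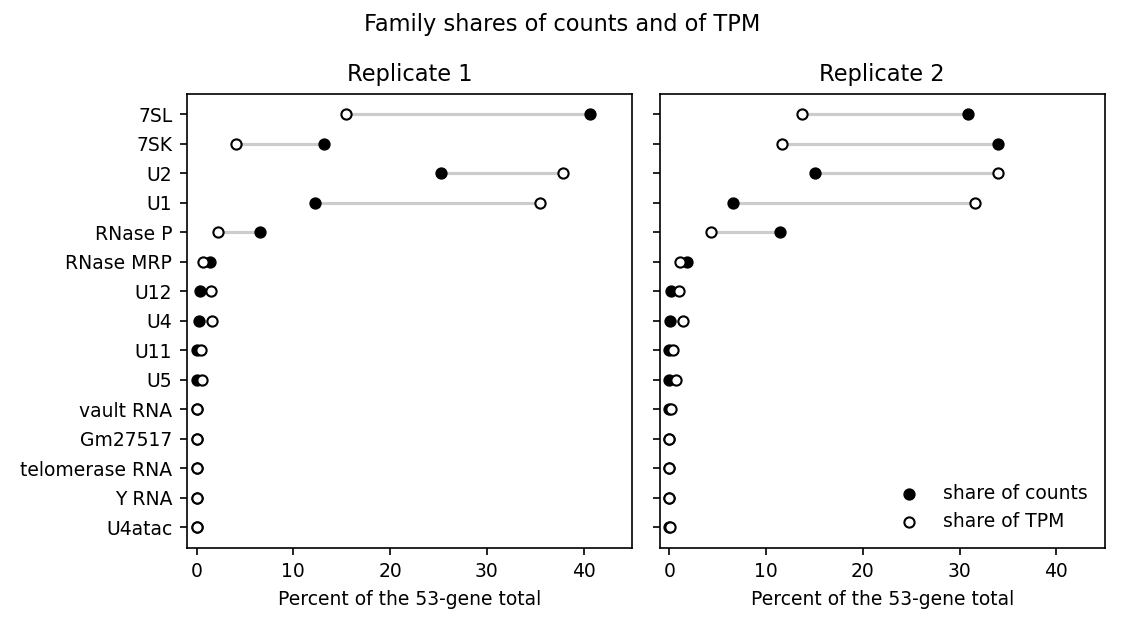
Percent of the 53-gene total held by each family, as counts (filled) and as TPM (open), in each library. U1 and U2 hold a larger share of TPM than of counts in both libraries, and 7SL, 7SK and RNase P a smaller one.

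U1 recognises the 5′ splice site by base pairing. Of 188 genes of the U1 family, 17 were at or above the minimum. Their summed count was 591087 in replicate 1 and 183558 in replicate 2, which is 11947 and 4147 CPM, or 8047 CPM ± 5516 (SD, n = 2). Replicate 2 was lower by 1.57 on the log2 CPM scale (log2 ratio -1.57). By TPM the family stood at 251276 and 188068. Sequences are shown because they separate the U1 classes. The Rnu1a1 sequence, with its splice-site-pairing letters and Sm protein site in capitals, was shared letter for letter by 7 of the 17 genes. In the others capitals mark bases that differ from it, an inserted base included.
Rnu1a1: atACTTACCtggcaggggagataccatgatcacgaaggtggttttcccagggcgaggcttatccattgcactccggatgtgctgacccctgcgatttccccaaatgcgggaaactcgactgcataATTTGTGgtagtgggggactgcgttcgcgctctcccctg
Gm22513: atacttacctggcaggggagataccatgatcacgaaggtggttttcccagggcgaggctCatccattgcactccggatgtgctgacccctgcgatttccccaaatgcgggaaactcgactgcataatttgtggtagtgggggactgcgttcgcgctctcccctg
Gm22614: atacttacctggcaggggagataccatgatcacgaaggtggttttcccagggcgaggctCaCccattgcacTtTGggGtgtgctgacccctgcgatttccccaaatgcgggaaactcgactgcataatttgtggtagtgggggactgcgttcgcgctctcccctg

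The sequences are GENCODE M21 transcripts on mm10, printed 5′ to 3′ with T for U. Rnu1a1 lies at chr11:87422867-87423030, Gm22513 at chr12:54696782-54696945 and Gm22614 at chr3:96488729-96488893, all on the plus strand. Positions of substitutions are counted from 1 at the 5′ end of Rnu1a1. Gm22513 differed by T60C alone. Gm22614 differed by T60C, T62C, C73T, C74G and A77G and by 1 inserted base, and it stands for the U1b class, the variant U1 known from embryonic mouse tissue. The 6 U1b genes held 8.27% of the U1 count in replicate 1 and 8.24% in replicate 2, or 8.26% ± 0.0230 (SD, n = 2). The 11 U1a genes held the rest, 91.7% and 91.8%. This class share moved little while the family's level moved by 1.57.

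Within U1a, the 7 identical genes together held 399988 and 115094 counts, which was 67.7% and 62.7% of U1. Counts of the single genes among them ranged from 53126 to 65054 in replicate 1, so the split between identical copies carries no information on which copy was transcribed. Gm23804 and Gm22317, equal to each other, were at 22638 and 19467 TPM. Gm22634 was at 27720 and 15860 TPM, with deposited credibility bounds of 591 and 55111 TPM in replicate 1. Gm22513, with its single substitution, was at 53511 and 46640 TPM, with bounds of 52636 and 53208 TPM in replicate 1. By the deposited estimates it was the highest single U1 gene in both libraries, at 125579 and 45402 counts. Its rank against the 7 identical genes is not fixed, since the upper bound of Gm22317 was 71344 TPM in replicate 1. Gm24305, which differs by A26G, was at 15874 and 5573 counts with similarly tight bounds, 6582 and 6804 TPM in replicate 1. Both copies differ in sequence from the 7 identical genes and had narrow intervals, but Gm26244, which also differs by 1 substitution, had a wide one (260 to 3101 TPM in replicate 1). T60C of Gm22513 is also present in the 6 U1b genes.

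Among the U1b genes, Gm22614 and its identical copy Gm25890 held 47224 and 14508 counts, 7.99% and 7.90% of U1. The named U1b genes Rnu1b1 and Rnu1b2, identical to each other, were far lower at 474 counts each in replicate 1 and 200 each in replicate 2 (199.98 as deposited). They carry C33T beside the substitutions of Gm22614. The deposited lower bound of Rnu1b2 in replicate 2 was 0.0011 TPM, against an estimate of 199 TPM. A level of Rnu1b2 alone is therefore hardly fixed by these reads. Rnu1b6, another named U1b gene, was at 0.14 and 0 counts. It is identical to Gm26232 and to Gm24830, which was given 664 and 195 counts. As for the other identical copies, no level of Rnu1b6 alone can be read from this split.

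All 17 U1 genes held ACTTACC, the letters that pair with the 5′ splice site, at positions 3 to 9. Of the 171 U1 genes below the minimum, 45 (26.3%) held it, and of all 1967 genes of the types 3.71% did. The Sm site searched, ATTTNTG, was in 17 of 17 genes against 76 of 171, and in 16.6% of the 1967. Motifs were searched on the transcript strand, and a match is a description of letters. Median identity to the named genes of the family was 100% in the 17 genes and 79.0% in the 171. Of the 17 genes, 3 are themselves named references and 6 more are exact copies of Rnu1a1, so their 100% is fixed and the medians are no independent comparison.

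U2 pairs with the branch point of the intron. Of 39 U2 genes, 12 were at or above the minimum, with a summed count of 1219517 in replicate 1 and 418378 in replicate 2. This is 24650 and 9453 CPM, or 17051 CPM ± 10746 (SD, n = 2), and a log2 ratio of -1.43. By TPM, U2 stood at 267862 and 202528. The ratio of U2 to U1 was 2.06 and 2.28 by counts, and 1.07 and 1.08 by TPM. Per effective length the libraries thus gave nearly the same ratio of U2 to U1. Rnu2-10, at chr11:101658238-101658428, is shown with its branch-point-pairing letters and Sm site in capitals, and Gm25360, at chr1:72226240-72226430, with its differing bases in capitals. Both are on the plus strand.
Rnu2-10: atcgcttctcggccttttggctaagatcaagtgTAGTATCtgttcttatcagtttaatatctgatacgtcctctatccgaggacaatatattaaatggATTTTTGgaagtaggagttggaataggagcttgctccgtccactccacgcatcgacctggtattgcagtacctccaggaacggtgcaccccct
Gm25360: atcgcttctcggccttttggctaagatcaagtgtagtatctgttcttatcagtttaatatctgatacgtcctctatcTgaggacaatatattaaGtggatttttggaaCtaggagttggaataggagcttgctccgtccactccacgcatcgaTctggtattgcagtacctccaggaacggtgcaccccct

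Rnu2-10, Gm24950, Gm23849 and Gm23971 are identical. Together they held 999710 and 338200 counts, 82.0% and 80.8% of U2. They differed from each other by at most 1.18-fold in replicate 1 and 1.20-fold in replicate 2, while their deposited bounds were wide. For Rnu2-10 the estimates were 54787 and 41648 TPM, with bounds of 4392 and 135524 TPM in replicate 1. Gm24950 was at 55499 and 45372 TPM and Gm23849 at 59130 and 39027 TPM. As with U1, these 4 genes can be read only as a sum.

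The 8 U2 genes that differ from Rnu2-10 held 18.0% and 19.2% of the family. Gm25360, with C78T, A95G, G109C and C154T counted from the 5′ end of Rnu2-10, was at 43058 and 20488 counts, with bounds of 9265 and 9441 TPM in replicate 1. Gm24497 stood further apart between the libraries than any other of the 53 genes, at 34160 and 5564 counts, a log2 ratio of -2.50. It carries G109C, as do Gm25360 and 3 other U2 genes at the minimum, and C186A, and its bounds were 2782 and 21159 TPM in replicate 1 and 1300 and 16183 TPM in replicate 2. The intervals of Gm24497 overlap between the libraries. All 12 genes held TAGTATC, the branch-point-pairing letters, at positions 34 to 40, against 12 of the 27 other U2 genes (44.4%) and 2.03% of all 1967.

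**Figure D3:**
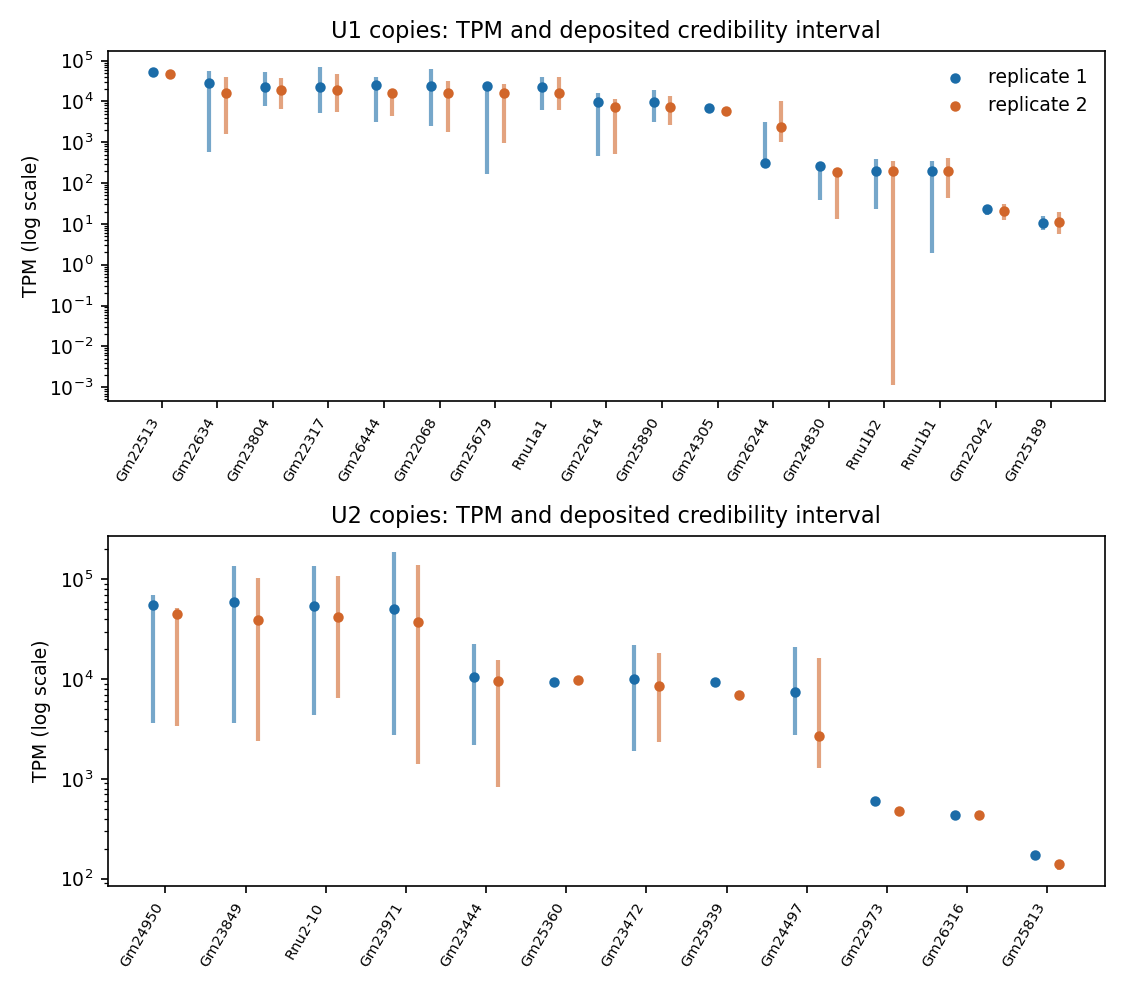
TPM of each U1 and U2 gene at or above the minimum (points, log scale), with the deposited credibility interval (lines; its level is not stated), in both libraries. Identical copies such as Rnu1a1 or Rnu2-10 have long lines. Gm22513, Gm24305 and Gm25360 have lines hidden by the point, and Gm26244 and Gm24497, which also differ in sequence, have long lines.

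The U1 and U2 genes lay in clusters. The 7 U1 genes at chr12:54696782-54738622 held 72.9% and 73.7% of the U1 count, and 2 at chr11:87422867-87426879 held 18.7% and 16.8%. The latter pair lies in an intron of Tex14 on the same strand, and Tex14 itself had 0 counts in both libraries. The 5 U2 genes at chr11:101604850-101658428 held 82.1% and 81.0% of the U2 count, and 4 at chr1:72226240-72255198 held 13.6% and 13.9%. The stretch chr3:96328425-96488893 held 5 of the 6 U1b genes and Terc. With a gap of at most 100 kb, 28 of the 53 genes fell in 7 loci of 2 or more. Shares between loci of identical copies carry the same limit as the copies.

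U4 is base-paired with U6 before the spliceosome is activated. The annotation names no U4 gene, so U4 was recognised by the textbook letters at its 5′ end. Genes with these letters served as references only if they had counts in both libraries. Of 38 genes assigned to U4, Gm24407 and Gm24265, less than 1 kb apart on chromosome 5, were at or above the minimum. Both are themselves these references. Gm24407, at chr5:115490254-115490394, had 6064 and 1686 counts and Gm24265, at chr5:115489459-115489599, had 6007 and 1806. The pair had nearly equal counts within each library. Together they stood at 244 and 78.9 CPM, or 161 CPM ± 117 (SD, n = 2), a log2 ratio of -1.67. The ratio of U1 to U4 was 22.6 and 22.3 by TPM. Both sequences are printed to show how close they are. Gm24265 differs by A88G and A99C, counted from the 5′ end of Gm24407, and the posterior coefficients of variation (CV) of the pair were from 0.016 to 0.026. Capitals mark the 5′ end letters GCTTTGC and the Sm site in the first and the differing bases in the second.
Gm24407: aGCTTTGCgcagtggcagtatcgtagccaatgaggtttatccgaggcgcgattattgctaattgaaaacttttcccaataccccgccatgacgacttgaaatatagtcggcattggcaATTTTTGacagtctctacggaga
Gm24265: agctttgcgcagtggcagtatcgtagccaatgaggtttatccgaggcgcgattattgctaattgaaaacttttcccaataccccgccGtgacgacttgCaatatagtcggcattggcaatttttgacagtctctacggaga

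U5 aligns the exons for joining. Of 11 genes, 4 were at or above the minimum, with a summed count of 1261 and 469, which is 25.5 and 10.6 CPM, or 18.0 CPM ± 10.5 (SD, n = 2). The log2 ratio was -1.31. Gm25313 led with 921 and 311 counts. Gm24871 had 205 and 112 counts and Gm23143 had 86 and 26. Gm24871 overlaps an exon of B930036N10Rik on the same strand, which had 2176 and 2694 counts, so its level is less certain. A U5 gene had effective lengths of 2.23 and 1.01 nt in the libraries, so 10.6 CPM became 4174 TPM. Rnu5g, the named U5 gene, was at 0 and 44.4 counts and so outside the choice. The Sm letters searched were in 0 of the 4 U5 genes and in 1 of the 7 others, unlike in U1 and U2. They are a single fixed pattern, so their absence does not mean that U5 lacks an Sm site.

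The remaining member of the major spliceosome, U6, supplies the catalytic site. None of its 943 genes reached the minimum. In 56 of them some count was present, 150 in replicate 1 and 31.0 in replicate 2 in sum, and Rnu6 had 0 in both. The gene is 107 nt long, with effective lengths of 1.2 and 0 nt in the libraries. Of the 1967 genes, 490 had an effective length of 0 in both libraries, 326 of them U6 genes, and the longest was 104 nt. U7, the RNA of histone mRNA 3′ end processing, has 61 genes with a median length of 62 nt, an effective length of 0 and 0 counts in both. A count of 0 allows up to 3 counts per gene, 0.0606 CPM in replicate 1 and 0.0678 CPM in replicate 2. At these lengths no level of U6 or U7 can be drawn from the tables.

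The minor spliceosomal RNAs were lower by counts than the major ones, by 91.8-fold in replicate 1 and 138-fold in replicate 2 for their sums (36.5-fold and 48.1-fold by TPM). U12, which pairs with the branch point of minor introns, had 16820 and 3684 counts from Rnu12, 340 and 83.2 CPM, or 212 CPM ± 182 (SD, n = 2). U11, which pairs with the 5′ splice site of minor introns, had 2839 and 616 counts from Rnu11, or 35.7 CPM ± 30.7 (SD, n = 2). Replicate 2 was lower in both, with log2 ratios of -2.07 for U12 and -2.09 for U11. The ratio of U12 to U11 was 5.92 and 5.98 by counts and 3.08 and 2.92 by TPM. U12 and U11, which work as a joined particle, thus kept their ratio while both were lower in replicate 2. U4atac, the minor counterpart of U4, came from Gm22710, with 205 and 75 counts, 385 and 391 TPM. U6atac had no gene at the minimum, and its candidate Gm25541 had 14 and 4 counts. Rnu11 overlaps an exon of the noncoding gene Gm28872 on the other strand, which had 30 and 55 counts, and nothing in the labels says whether counting used strand. The sequences are shown since each is the single gene of its family at the minimum. Intervals were narrower for Rnu12 and Rnu11 than for Gm22710. The bounds of Gm22710 were 331 and 435 TPM in replicate 1 and 306 and 480 TPM in replicate 2. Gm22710 also overlaps an exon of 2900060B14Rik on the same strand, for which no counts were given. Rnu12 lies at chr15:83149644-83149794 on the plus strand, Rnu11 at chr4:132270080-132270213 and Gm22710 at chr1:118459141-118459265, both on the minus strand. The Sm pattern searched is fixed, so a gene without it, here Rnu11, may still hold an Sm site. Capitals mark ATGAGTA in Rnu12, at positions 14 to 20, which was in 1.83% of all 1967 genes. These letters do not mark the whole stretch that pairs with the branch point. Capitals also mark AAAGGGC in Rnu11 (its 5′ end, in 0.407%) and the Sm site searched, which was found in Rnu12 and Gm22710.
Rnu12: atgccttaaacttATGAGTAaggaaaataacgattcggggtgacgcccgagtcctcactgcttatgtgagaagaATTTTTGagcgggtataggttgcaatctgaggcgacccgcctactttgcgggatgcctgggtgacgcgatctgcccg
Rnu11: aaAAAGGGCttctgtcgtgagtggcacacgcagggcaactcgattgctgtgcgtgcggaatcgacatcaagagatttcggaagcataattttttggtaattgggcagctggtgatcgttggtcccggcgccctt
Gm22710: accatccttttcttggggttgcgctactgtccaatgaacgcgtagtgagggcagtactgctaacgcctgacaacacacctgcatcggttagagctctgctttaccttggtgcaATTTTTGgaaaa

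7SL had the most counts of any family in replicate 1 and 7SK in replicate 2, while by TPM U2 was highest and U1 next in both libraries. 7SL had 1965757 and 861158 counts, 39733 and 19456 CPM, or 29595 CPM ± 14338 (SD, n = 2), a log2 ratio of -1.07. The identical genes Rn7s1 and Rn7s2 on chromosome 12 held 99.8% of it in both libraries, with 981236 and 981251 counts in replicate 1. The deposited CV (posterior SD over posterior mean) of Rn7s1 was 0.353, so the pair too can be read only as a sum. Rn7s6 had 3270 and 1508 counts.

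7SK went the other way. Its 6 genes had 637132 and 945643 counts, 12878 and 21365 CPM, or 17122 CPM ± 6001 (SD, n = 2), a log2 ratio of 0.69. Rn7sk alone held 636833 and 945252 counts, and its bounds were 28137 and 28287 TPM in replicate 1 and 68244 and 68591 TPM in replicate 2. The interval was narrow but did not hold the deposited estimate itself, 28528 and 69186 TPM. In all, the estimate lay outside its own bounds for 7 of the 53 genes in replicate 1 and 5 in replicate 2, Gm22513 and Rmrp among them. The ratio of 7SL to 7SK was 3.09 in replicate 1 and 0.911 in replicate 2 by counts, and 3.83 and 1.18 by TPM. At 331 nt, Rn7sk is close in length to the 300 nt of Rn7s1. In CPM, 7SK was the lowest of 7SL, U2 and 7SK in replicate 1 and the highest in replicate 2, so its place among them lies within the spread, while 7SL was above U2 in both libraries. The 5 other 7SK genes were between 11.1 and 191 counts. Gm24146 had 170 and 191, Gm26315 had 49.3 and 118 (log2 ratio 1.34) and Gm24447 had 11.1 and 33.4 (log2 ratio 1.54). Gm26315 lies in an intron of Celf2 on the same strand, which had 11878 and 11919 counts. Rn7sk, at chr9:78175303-78175633 on the minus strand, is printed over its first 110 nt (chr9:78175524-78175633) with GATCTGN, letters of the 5′ hairpin bound by Hexim proteins, in capitals. They were in 5 of the 6 genes, in 99 of the 155 other 7SK genes and in 9.91% of the 1967.
Rn7sk: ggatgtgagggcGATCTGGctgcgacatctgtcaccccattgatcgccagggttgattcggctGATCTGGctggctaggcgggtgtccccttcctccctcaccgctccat

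On the CPM scale the ribozyme RNAs differed least between the libraries among the abundant families. Rpph1, the RNA of RNase P, which trims the 5′ ends of tRNA precursors, had 318255 and 318495 counts, 6433 and 7196 CPM, or 6814 CPM ± 540 (SD, n = 2), a log2 ratio of 0.12. It overlaps an exon of Ccnb1ip1 on the same strand, which was given 0 counts in both libraries. Rmrp, the RNA of RNase MRP, which cuts rRNA precursors, had 68603 and 49975 counts, or 1258 CPM ± 182 (SD, n = 2), a log2 ratio of -0.34. The ratio of RNase P RNA to RNase MRP RNA was 4.64 and 6.37 by counts and 3.15 and 4.01 by TPM. Both are single genes here, at chr14:50807449-50807767 and chr4:43492788-43493058.

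The remaining RNAs had few counts. Vaultrc5, the RNA of the vault particle, had 791 and 348 counts, or 11.9 CPM ± 5.75 (SD, n = 2). At effective lengths of 8.13 and 4.02 nt these counts became 675 and 774 TPM, so few counts do not mean a low TPM here. Terc, the telomerase RNA that carries the template of telomere repeats, had 339 and 240 counts, or 6.14 CPM ± 1.01 (SD, n = 2). It stood at 9.56 and 10.2 TPM, and at 423 nt it was the longest of the 53. The telomere template letters CTAACCC were found in it, as in 0.966% of the 1967. Rny3, a Y RNA bound by the Ro protein, had 307 and 118 counts but was listed at 0 TPM in both libraries, because its effective length was 0. No level per length can be drawn for Rny3. It was the shortest of the 53 at 102 nt and the only gene of the 3 types with counts and an effective length of 0 in both libraries. Its sequence, at chr6:47781624-47781725 on the plus strand, is shown whole for its size.
Rny3: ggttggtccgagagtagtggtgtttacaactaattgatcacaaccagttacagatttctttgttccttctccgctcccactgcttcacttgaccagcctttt

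Gm27517, the last gene, overlaps an exon of the long noncoding RNA Tug1 on the same strand. It had 707 and 388 counts against 8852 and 9188 for Tug1. The sum of both was a whole number in each library, 9559 and 9576. Reads were thus shared between them, and the level of Gm27517 is uncertain.

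Differences between the libraries were common among these RNAs. On the log2 CPM scale 41 of the 53 genes lay more than 2-fold apart, against 9.65% of the 12885 genes with at least 10 counts in both libraries. Replicate 2 was lower for 38 of them (5.15% over all genes) and higher for 3 (4.5% over all genes). Identical copies counted once, 28 of 40 sequences were apart, and summed by family 10 of 15 were, all lower in replicate 2. On log2(TPM + 1) the count was 5 in place of 41, where 1 was lower and 4 higher. This count is not corrected for the median log2 TPM ratio of 0.27 over all genes, which shifts both limits. No share over all genes is given for it, so its 2 directions are not compared. The median log2 ratio was -1.31 over the 53 genes and -0.0031 over all 12885.

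The shift went with length. Of the 40 genes of at most 200 nt, 36 were more than 2-fold lower in replicate 2, and of the 13 longer ones 2 were, Rn7s1 and Rn7s2. Since 20 of the 53 genes have an identical copy, these counts and the medians below are not over independent units. Summed by family, every family of at most 200 nt was lower, from -1.06 (vault RNA) to -2.09 (U11) in log2 ratio. Of the longer families only 7SL, at -1.07, was past 2-fold. Other genes of at most 200 nt, 77 of them small nucleolar RNAs, were more than 2-fold lower in 39 of 89 (43.8%). Their median log2 ratio was -0.86 up to 150 nt (76 genes) and -0.76 from there to 200 nt (13 genes), against -1.38 in both bands for the RNAs described here. Between 200 and 350 nt the medians were -0.13 for 85 other genes and -0.22 for the 12 members of the set. The size range differed between the libraries, and its part in the result was not tested.

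Gm26244 stood apart from the other short genes. This U1 copy in an intron of Rock1 had 730 and 2355 counts, a log2 ratio of 1.80, where each of the 16 other U1 genes at the minimum was lower in replicate 2. Its deposited bounds were 260 and 3101 TPM in replicate 1 and 1002 and 10424 TPM in replicate 2, so they overlap. Rock1 had 10778 and 12322 counts. Besides Gm24497, Rnu11 and Rnu12, the furthest in the downward direction were Gm22634 (65054 and 15439 counts, log2 ratio -1.96) and Gm26444 (61146 and 15439 counts, log2 ratio -1.87). Both are among the 7 identical U1 genes, whose sum was 399988 and 115094.

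**Figure D4:**
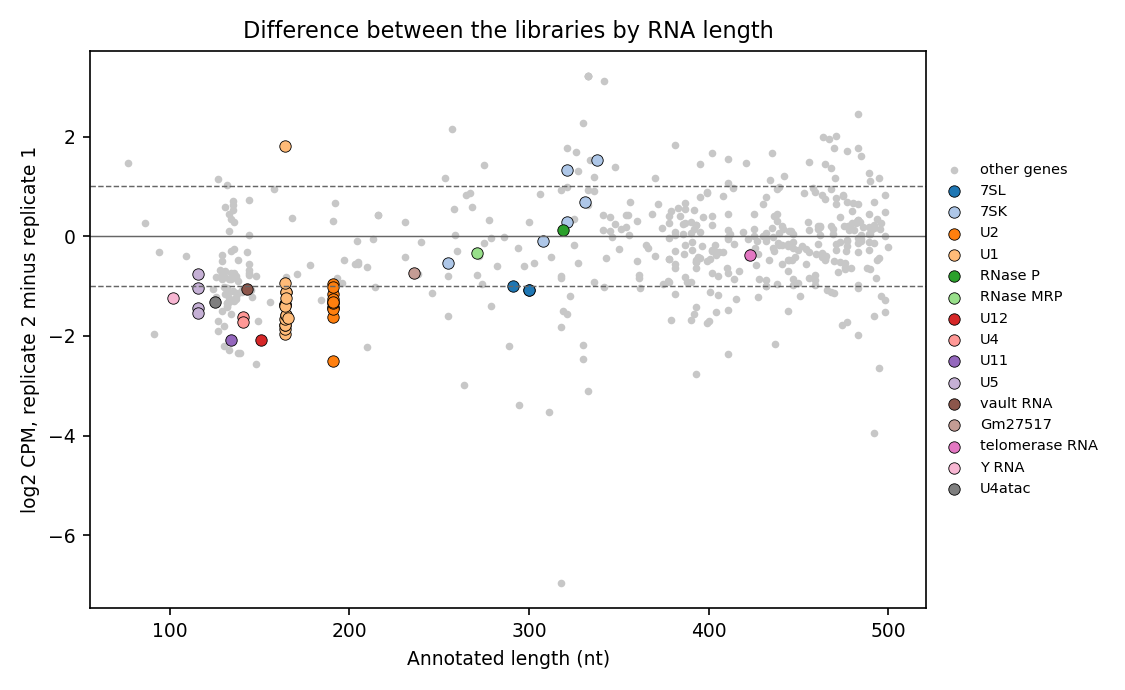
Log2 CPM in replicate 2 minus replicate 1 against annotated length, for the 53 genes (coloured by family) and for other genes with at least 10 counts in both libraries up to 500 nt (grey). Dashed lines mark 2-fold. The coloured points of at most 200 nt lie below 0 with 1 exception, the U1 gene Gm26244 at 1.80, and the 7SK gene Rn7sk lies above 0 at 0.69.

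On the TPM scale the picture changed, since effective lengths also differ between the libraries. The median log2 TPM ratio over all genes was 0.27, and family ratios are read against it. U1 was at -0.42, U2 at -0.40, U4 at -0.40 and 7SL at -0.42, while U12 and U11 stayed lowest at -0.85 and -0.78. RNase MRP RNA changed sign, from -0.34 in log2 CPM to 0.39 in log2 TPM. Signs also changed for U5, U4atac, vault RNA, telomerase RNA and Gm27517, whose log2 TPM ratios lay between 0.02 and 0.20, below the median of all genes. 7SK at 1.28, RNase P RNA at 0.73 and RNase MRP RNA at 0.39 were above it. U1, U2, U4, U11, U12 and 7SL were lower, and 7SK and RNase P RNA higher, in replicate 2 on both scales.

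How far reads could be assigned to 1 copy was uneven. The deposited posterior SD of the count was over 0.25 of its mean for 23 of the 53 genes in replicate 1, against 0.807% of all 12885, and for 22 in replicate 2, against 0.792%. Of the 53 genes, 20 had an identical copy and 33 did not. Counts were whole numbers (within 0.005) in both libraries for 11 genes and split for 42. Summed over all copies, 13 of the 15 families came within 0.02 of a whole number in both libraries. U5 and the genes assigned to no family were the exceptions. The family sum is thus the firmer measure, and single copies of 7SL, U1 and U2 are uncertain.

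At the edge of the choice, Gm25189 (25 and 11.03 counts), Gm24447 (11.1 and 33.4) and Gm26035 (23.6 and 20.4) were just inside the minimum of 10. Gm26407 (12 and 8), Gm22058 (7.02 and 7.01) and Vis1 (7 and 10) were just outside. In all, 14 genes reached 10 in replicate 1 alone and 5 in replicate 2 alone, Gm26407 and Vis1 included. Among these were the Y RNA gene Rny1 with 18 and 0 counts and Zakit with 0 and 19. Of the 1914 genes outside, 1827 had 0 in both libraries, and the other 87 summed to 1384 and 197 counts.

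The mRNAs of proteins that transcribe, coat or process these RNAs were present and differed little between the libraries. Of 84 listed genes 83 were matched, 76 were at or above 1 TPM in both libraries and 81 had at least 10 counts in both. Of those 81, 2 lay more than 2-fold apart, against 9.65% of all genes. Their median log2 ratio was -0.0026 over the 83 matched genes. The listed mRNAs are longer than most of the RNAs above, from 350 nt (Snrpg) to 8235 nt (Trove2). The 2 genes were Zmat5, a minor spliceosome protein with 323 and 104 counts (log2 ratio -1.50), and Zfp473, a histone mRNA processing factor with 105 and 225 counts (log2 ratio 1.20).

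Spliceosome proteins were among the higher groups. All 7 genes of the Sm ring, the protein collar of U1, U2, U4 and U5, were expressed, from Snrpd3 at 9.44 TPM ± 1.07 to Snrpd1 at 109 TPM ± 27.0 (SD, n = 2). The 3 U1 proteins ranged from Snrpa at 20.5 TPM ± 3.50 to Snrnp70 at 67.1 TPM ± 9.31, and the U2 proteins Snrpb2 and Snrpa1 were at 26.9 TPM ± 9.85 and 28.5 TPM ± 0.99. The LSm ring, which binds the 3′ end of U6, ranged from Lsm7 at 4.36 TPM ± 1.34 to Lsm3 at 83.2 TPM ± 16.8. Usb1, Tut1 and Sart3, which process U6 or return it to use, were all expressed, from 3.51 TPM ± 1.41 for Tut1 to 7.75 TPM ± 0.891 for Sart3. The mRNAs of U6 partners were thus measured in libraries in which no U6 gene reached the minimum. Proteins of the minor spliceosome had a median of 11.9 TPM, from Snrnp35 at 2.57 TPM ± 0.339 to Snrnp25 at 16.5 TPM ± 1.62. Of the U7 partners, Slbp, the histone stem-loop binding protein, was at 55.3 TPM ± 4.84 and Zfp473 at 0.460 TPM ± 0.0990.

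Assembly and transcription factors were lower. The SMN complex, which loads Sm rings onto snRNA, had a median of 8.54 TPM over 9 genes, from Gemin8 at 1.67 TPM ± 0.0990 to Strap at 35.4 TPM ± 6.84. Factors that transcribe snRNA genes had a median of 6.62 TPM, from Brf2 at 1.79 TPM ± 0.587 to Snapc5 at 18.7 TPM ± 4.62 (SD, n = 2). All 18 genes of these groups were at or above 1 TPM in both libraries.

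Partners of the other RNAs were uneven. Of the 7SK proteins, Larp7, which binds its 3′ end, was at 25.0 TPM ± 4.29 and the P-TEFb inhibitor Hexim2 at 0.530 TPM ± 0.368. Hexim1, the other inhibitor, was at 5.64 and 7.30 TPM. The 7 matched genes of the signal recognition particle lay in a narrow range, from Srp68 at 16.3 TPM ± 2.14 to Srp54c at 42.8 TPM ± 7.36, and Srp54a and Srp54c are near-identical paralogs whose reads may be split. The RNase P and MRP proteins ranged from Pop4 at 17.3 TPM ± 1.68 down to Rpp25, which had 17 and 0 counts. Ssb, the La protein that binds the 3′ ends of new small RNAs, was at 118 TPM ± 33.6 and Trove2, the Ro protein bound by Y RNAs, at 0.375 TPM ± 0.163. The vault proteins ranged from Parp4 at 0.840 TPM ± 0.0141 to Mvp at 4.08 TPM ± 0.120. Telomerase RNA was present in both libraries, while Tert, the catalytic protein, had 69 and 0 counts, and Dkc1, which stabilises the RNA, was at 89.7 TPM ± 5.39 (SD, n = 2).

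**Figure D5:**
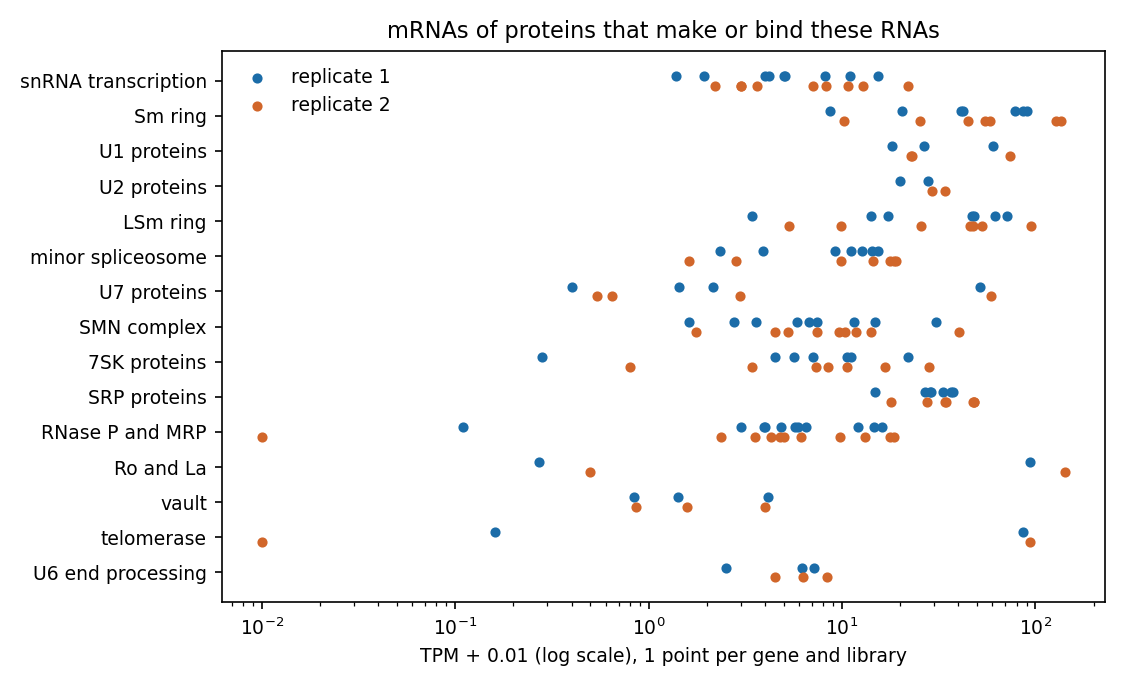
TPM + 0.01 (log scale) of the 83 matched protein genes by group, 1 point per gene and library. Sm ring, U1, U2 and signal recognition particle genes lie mostly above 10 TPM, and Tert and Rpp25 are at 0 in replicate 2.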

How the data were processed

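Total RNA of 2 libraries was analysed. Per the labels, a ScriptSeq kit was used after removal of rRNA. The authors deposited expected counts, TPM, FPKM, posterior means and SDs of the count, and credibility bounds of TPM per gene. The deposited metadata name mm10 and GENCODE M4, and no aligner or quantifier is given in the sources used here. Names, types, coordinates and sequences came from GENCODE M21 by identifier (42462 of 43346 genes matched). Entries for tRNA and spike-ins were not used.

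Genes were assigned to families by BLAST 2.17.0 matches of 70% identity or more that covered 50% of the gene. The matches were to named genes or, for U4, U4atac and U6atac, to genes with the textbook 5′ start and counts in both libraries. Libraries were scaled over 12885 genes with edgeR 4.0.16 (trimmed mean of M values, counts rounded) as log2 CPM with a prior count of 2. More than 2-fold apart means a log2 difference over 1. Substitutions came from global alignments in Biopython 1.88. The calculation was tested on simulated data. With 1 group of 2 libraries no p-value was computed.

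Members, lists and rules were chosen with earlier results of these data known. Named were genes whose symbol names their RNA, the 3 highest by mean TPM per family, the 5 furthest apart in each direction, those nearest the minimum, and the highest, lowest and more than 2-fold apart protein genes per group. Other copies named (Gm22614, Gm25890, Gm24830, Gm26232, Gm24305, Gm23971, Gm25360, Gm22710, Gm25541 and Gm27517), Hexim1 and the overlapping genes were chosen after their values were seen. Srp54b was not matched. Alternatives were other minimums, scalings, priors, family limits and posterior means, and each library alone. Some sequences are not reported here.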

Additional observations from a re-analysis of the deposited data

How the results depend on the processing

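The number of genes at the minimum lay between 51 and 57 under minimums of 5 and 20 and with posterior mean counts. Left to 1 library each, the share of counts was 6.30% to 9.77%, the share of TPM 59.5% to 70.8% and the spliceosomal share of counts 21.9% to 38.1%. With annotated length, added after seeing the data, the mean share of TPM was 36.7% against 65.2%. The count of 41 genes more than 2-fold apart stayed between 39 and 43 with DESeq2 1.42.0 size factors, library totals, a prior count of 0.5 and posterior mean counts. It was 5 on log2(TPM + 1), 76 of 1967 genes with no filter, and 10 of 15 when families were counted; the last has fewer units by construction. Family log2 ratios kept their side of 2-fold in all 15 families under DESeq2 size factors, library totals, all copies, the stricter family match and posterior mean counts. On log2 TPM, 6 turned positive, 3 of them from past 2-fold (U4atac 0.022, U5 0.092, vault RNA 0.20) and 3 from within it (RNase MRP RNA, telomerase RNA and Gm27517); another 6 came within 2-fold and 1 (7SK) went past it, and Rny3 gives no value. TPM divides by effective lengths that differ between the libraries; the cause was not tested further. With a posterior CV over 0.5, 18 genes were counted in replicate 1 in place of 23. No paired analysis was possible because there is 1 group and no test. Counts of Terc, Rny3 and U4atac were under 350 per library, and the 490 genes with an effective length of 0, up to 104 nt long, have no TPM.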

Other observations

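Of the 53 genes 34 lay outside other genes. On the same strand 9 overlapped an exon of another annotated entry and 8 lay in an intron, and 2 overlapped a gene on the other strand. The 9 include Rmrp, which overlaps another entry of the same name, and Rn7s1, Rn7s2 and Rn7s6, which overlap miRNA entries. No counts were given for these overlapping entries. Gm25082, assigned to 7SK, overlaps an exon of the kinase gene Clk4 and had 45 and 28 counts where Clk4 had 7063 and 7796. Gm23849, one of the 4 identical U2 genes, lies in an intron of Rdm1, which had 283 and 117 counts (log2 ratio -1.15). Another 3 U2 genes lie in an intron of D230017M19Rik, which had 0 and 21 counts, against 34160 and 5564 for Gm24497 among them. These genes were chosen after their values were seen.

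Copies that differ from Rnu1a1 or Rnu2-10 by 1 substitution were not equally resolved. The posterior CV in replicate 1 was 0.00031 for Gm22513 (T60C) and 0.0031 for Gm24305 (A26G), and 0.59 for Gm26244, whose substitution is at position 152 of 164. In U2, Gm23444 and Gm23472, both with G109C, are identical to each other and had 0.56 and 0.75, while Gm26316 (C170T) had 0.031. The number of reads over each base is not in the tables used here, so the part of position was not tested.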
